A study of Mus musculus with 4 samples.

Results

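Heat shock proteins and their co-chaperones were followed in the hippocampus on 4 arrays, in males of DBA/2J, an inbred mouse line. Members were the probesets whose single gene symbol in the platform annotation begins with Hsp90, with Hspa, Hspb, Hspd, Hspe or Hsph and a digit, with Dnaj, or with Bag or Hsf and a digit. This gave 184 probesets of 80 genes, among 45037 probesets without the array's technical controls. The fluoxetine mice drank water that supplied 18 mg/kg per day for 21 days, and the control mice drank untreated water (0 mg/kg per day). Mice were adult, 8 to 10 weeks old by the sample labels. Fluoxetine is an antidepressant that blocks serotonin reuptake. Each group had 12 mice, whose RNA made 2 pools of 6. Every pool has 1 array of the type Affymetrix Mouse Genome 430 2.0, so a value stands for 6 animals and does not show how single mice differed. The comparison asks whether chaperone transcripts differ after chronic fluoxetine.

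Chaperones bind unfolded or aggregation-prone proteins. HSP70 proteins work in cycles of ATP binding, in which J-domain proteins (DNAJA, DNAJB and DNAJC) deliver clients and stimulate ATP hydrolysis, while HSP110 and BAG proteins release ADP and the client. HSP90 matures kinases and receptors, among them the glucocorticoid receptor. Small HSPs hold denatured proteins, HSP60 and HSP10 form the folding chamber of mitochondria, and the transcription factor HSF1 induces many cytosolic members through heat shock elements. In neurons, J-domain proteins also serve synaptic vesicles and clathrin coats.

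Promoter windows from RefSeq (build GRCm38.p6, 250 bases before to 50 after an annotated start) are shown for 6 members whose windows hold a pair of heat shock units. Hsph1, Hspa1b, Bag3 and Hspb1 had higher values with fluoxetine in at least 1 pool, and Dnajc27 was the member that passed the test. Hspe1 is shown because it holds the motif with a smaller difference between groups. Its brightest probeset was higher in both fluoxetine pools than in both control pools, by a log2 of 0.11 (95% interval -0.10 to 0.32). Capitals mark pairs of inverted heat shock units, TTCNNGAA or GAANNTTC. Each of these reads the same on both strands, so searching 1 strand covers both.
Hsph1, chr5:149636287-149636586, minus strand: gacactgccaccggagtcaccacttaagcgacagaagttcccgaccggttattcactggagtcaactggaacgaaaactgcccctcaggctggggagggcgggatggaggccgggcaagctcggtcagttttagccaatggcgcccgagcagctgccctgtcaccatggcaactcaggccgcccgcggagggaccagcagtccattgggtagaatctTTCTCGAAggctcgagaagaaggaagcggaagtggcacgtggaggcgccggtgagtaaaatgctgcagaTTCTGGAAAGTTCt
Hspa1b, chr17:34959189-34959488, minus strand: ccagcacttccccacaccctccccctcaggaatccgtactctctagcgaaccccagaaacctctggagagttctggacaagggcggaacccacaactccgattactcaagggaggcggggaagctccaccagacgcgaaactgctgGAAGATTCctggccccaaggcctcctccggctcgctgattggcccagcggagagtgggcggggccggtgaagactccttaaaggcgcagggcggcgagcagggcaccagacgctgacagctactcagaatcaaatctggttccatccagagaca
Bag3, chr7:128523333-128523632, plus strand: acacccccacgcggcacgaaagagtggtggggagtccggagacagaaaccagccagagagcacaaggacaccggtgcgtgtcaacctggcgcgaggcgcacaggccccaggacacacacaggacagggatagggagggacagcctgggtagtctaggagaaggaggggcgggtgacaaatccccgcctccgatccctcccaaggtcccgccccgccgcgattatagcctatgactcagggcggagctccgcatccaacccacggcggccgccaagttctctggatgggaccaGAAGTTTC
Hspb1, chr5:135887669-135887968, plus strand: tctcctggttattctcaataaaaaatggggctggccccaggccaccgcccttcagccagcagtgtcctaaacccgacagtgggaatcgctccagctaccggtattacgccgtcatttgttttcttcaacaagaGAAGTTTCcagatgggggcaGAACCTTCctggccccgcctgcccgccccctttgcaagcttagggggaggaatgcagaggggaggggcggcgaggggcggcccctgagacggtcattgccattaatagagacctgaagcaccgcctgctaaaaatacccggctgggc
Dnajc27, chr12:4082324-4082623, plus strand: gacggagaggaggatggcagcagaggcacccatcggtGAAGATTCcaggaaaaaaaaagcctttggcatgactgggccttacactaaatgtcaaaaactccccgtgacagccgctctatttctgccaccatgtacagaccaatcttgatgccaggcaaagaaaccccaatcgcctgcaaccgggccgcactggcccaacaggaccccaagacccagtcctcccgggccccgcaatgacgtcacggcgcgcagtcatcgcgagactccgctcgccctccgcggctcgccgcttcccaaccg
Hspe1, chr1:55087898-55088197, plus strand: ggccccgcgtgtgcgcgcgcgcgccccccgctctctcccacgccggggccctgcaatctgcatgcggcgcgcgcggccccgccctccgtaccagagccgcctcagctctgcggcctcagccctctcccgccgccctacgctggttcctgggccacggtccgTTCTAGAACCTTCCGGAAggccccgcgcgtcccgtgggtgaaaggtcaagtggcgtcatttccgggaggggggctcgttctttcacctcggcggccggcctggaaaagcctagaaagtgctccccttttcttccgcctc

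Of the 80 genes, 65 had a window in the promoter table, 83 windows in all. A run of 3 units is TTCNNGAA followed after any 2 bases by a further TTC, or its reverse complement, GAANNTTC followed after any 2 bases by a further GAA. It was searched on both strands and stood in 6 of these windows (7.23%), against 198 of all 32851 windows (0.603%). The 6 windows belong to 4 of the 65 genes, Hsph1, Hspd1, Hspe1 and Dnajb6, against 179 of all 27025 genes. The windows of the neighbouring genes Hspd1 and Hspe1 overlap and share the same stretch. The windows of Hsph1 also overlap each other, as do those of Dnajb6, so the 6 windows are not separate places. The shorter pair of units, which is part of the longer run, stood in 20 chaperone windows (24.1%) and in 15.1% of all windows. In Hsph1 the run of 3 units lay 37 to 49 bases into the transcript (start counted as 1), and in Hspe1 it began 89 bases before the start. The windows of Dnajb5, Dnajb1, Hspa2, Hspa12a, Hspa5 and Hsp90b1, also described here, held 0 runs and 0 pairs. A match or its lack describes letters in this window only.

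As a background to the values, the 4 arrays had median intensities of 22.6 to 23.3, and on each of them 16612 to 16866 probesets were at 100 or more, the cut-off that the submitters used. The small number of arrays limits the precision. A probeset was tested where at least 2 arrays reached 100, which 16938 probesets did. Of these, 291 (1.72%) passed limma at a Benjamini-Hochberg adjusted p under 0.05, and 3816 (22.5%) had an unadjusted p under 0.05. Neuron markers were all above the filter (7 of 7 genes), with 0 called by limma and 1 at an unadjusted p under 0.05. Of 8 tested microglia markers limma called 5 higher, and all 8 were higher with an unadjusted p under 0.05. Their summed intensities were 11652 and 11512 in fluoxetine pools and 7520 and 7342 in control pools. Of 8 tested astrocyte markers 3 were called higher, 4 had an unadjusted p under 0.05 and 7 had the higher mean with fluoxetine. Their sums were 66487 and 66954 in fluoxetine pools, against 51087 and 51819 in control pools. Among 6 tested vascular markers 2 were called higher, and all 6 were higher with an unadjusted p under 0.05. One of them, Flt1, passed the filter only through its fluoxetine pools. Vascular sums were 3637 and 3617 in fluoxetine pools, against 2494 and 2394 in control pools. Oligodendrocyte markers had 0 of 6 called and 0 at an unadjusted p under 0.05, with sums of 54140 and 53964 in fluoxetine pools and 56853 and 56599 in control pools. Choroid plexus markers (0 of 2 tested genes called, 0 at an unadjusted p under 0.05) summed to 51221 and 4460 in fluoxetine pools and 37977 and 2050 in control pools, so pool 1 was high in both groups. Hybridisation spike-ins had a median log2 of 0.36, fluoxetine over control. In whole tissue, a change in cell number and in RNA per cell cannot be told apart, and the part of these shifts in the chaperone values was not tested.

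Most chaperone transcripts had similar levels with and without fluoxetine. Of the 184 probesets 117 were tested, covering 56 genes. Only 1 passed, a probeset of Dnajc27 that fell, which is 0.855% of the tested members against 1.72% of all tested probesets (1.03% higher and 0.685% lower). At an unadjusted p under 0.05 the members numbered 20 (17.1%), against 22.5% over the array. The median log2 fold change, fluoxetine over control, was -0.001 over the members and -0.036 over all tested probesets. An absolute value under 0.25 was found for 80.3% of members and 78.1% of all. Groups did not overlap for 60 members (51.3%, 35 higher and 25 lower), against 56.0% over the array (21.9% higher and 34.2% lower). By side, 29.9% of the members lay higher without overlap and 21.4% lower. Counted by probeset, the higher share was thus above that of the array and the lower share below it. Several of these probesets share a gene. At the brightest tested probeset of each gene, 14 of 56 chaperone genes lay higher without overlap and 14 lower. Over all genes 23.6% lay higher and 32.7% lower. Counted by gene, the higher share was therefore close to that of all genes, and the lower share was still below it. The shares of calls, of unadjusted p under 0.05 and of non-overlap in all were below those of the array.

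**Figure D1:**
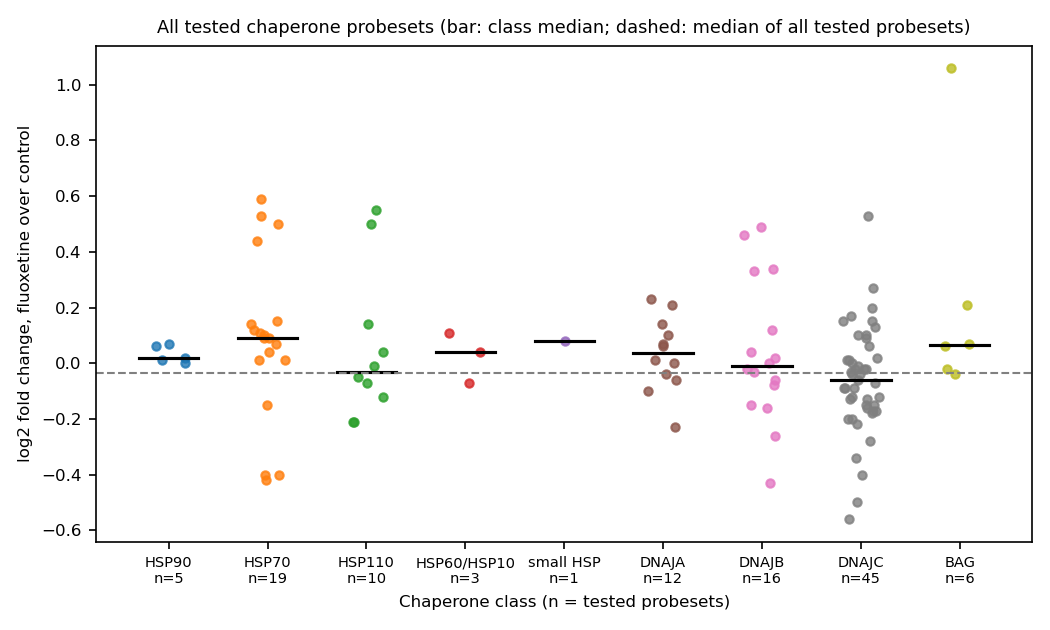
Log2 fold change, fluoxetine over control, of the 117 tested chaperone probesets by class; each point is 1 probeset, the bar is the class median and the dashed line the median of all tested probesets (-0.036). Medians lie close to 0, the highest point is a Bag3 probeset at 1.06 and the lowest a Dnajc27 probeset at -0.56.

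The cytosolic HSP70 proteins held both the constitutive form, with intervals close to 0, and the inducible form, with higher values in fluoxetine pools. Hspa8 encodes the constitutive Hsc70, which also strips clathrin from vesicles. Its brightest probeset read 48067 and 47065 in fluoxetine pools and 43412 and 44841 in control pools (log2 0.11, 95% interval -0.06 to 0.28). At the other 2 tested Hspa8 probesets the groups overlapped, with log2 values of 0.01 and 0.07.

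Hspa1b, the stress-inducible HSP70, had 955 and 1202 in fluoxetine pools and 811 and 626 in control pools. Both fluoxetine pools were above both control pools, by a log2 of 0.59 ± 0.17 (SE, n = 2 pools per group), and limma's adjusted p was 0.153. The other Hspa1b probesets gave 0.50 and 0.53, also without overlap and without passing. Its near-identical copy Hspa1a can share these signals. The single Hspa1a probeset stayed under 100 in every array (63.8 and 62.8 in fluoxetine pools, 64.0 and 55.3 in control pools).

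Hspa2, known for its role in sperm development, and Hspa12a, a distant HSP70 relative, lay in the other direction. Hspa2 read 605 and 718 in fluoxetine pools and 911 and 858 in control pools (log2 -0.42 ± 0.11, adjusted p = 0.120 by limma). Hspa12a read 1845 and 1674 in fluoxetine pools and 2281 and 2350 in control pools (log2 -0.40 ± 0.08, adjusted p = 0.0881 by limma). Its second tested probeset gave -0.40 as well. Neither gene's groups overlapped and neither passed, but Hspa12a did with trend and robust settings (adjusted p = 0.0486). Its adjusted p was 0.152 with the pool number as a block, 0.232 without the intensity filter and 0.147 to 0.270 with 1 array left out. In all, 0 of 19 tested HSP70 probesets passed limma and 7 had an unadjusted p under 0.05 (36.8%, against 22.5% over the array), 4 higher and 3 lower. Groups did not overlap for 73.7% of them, against 56.0% over the array. Several of these probesets share a gene.

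The HSP110 gene Hsph1, a heat-inducible exchange factor for HSP70, was higher in both fluoxetine pools than in both control pools at both of its probesets. The brighter read 6300 and 6182 in fluoxetine pools and 4551 and 3992 in control pools. The second read 3145 and 2971 in fluoxetine pools, against 2243 and 2071 in control pools. The gap between groups was wider than that between the pools of either group. Log2 fold changes were 0.55 ± 0.09 and 0.50 ± 0.08, with adjusted p of 0.0668 and 0.0636 by limma, just short of the threshold. For the brighter probeset, adjusted p was 0.0424 when arrays were centred on their medians and 0.0278 with trend and robust settings, but 0.127 with the pool number as a block, 0.221 without the intensity filter and 0.171 to 0.212 with 1 array left out. The related Hspa4 (log2 0.14, 95% interval -0.09 to 0.38) and Hspa4l (-0.21, interval -0.39 to -0.04) did not pass. Of 10 tested HSP110 probesets 0 passed and 3 had an unadjusted p under 0.05 (30.0%, against 22.5% over the array), 2 of them of Hsph1.

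HSP90 transcripts had small differences. Hsp90aa1, the inducible cytosolic form, read 25873 and 25804 in fluoxetine pools and 23989 and 25762 in control pools (log2 0.06, 95% interval -0.13 to 0.24). Hsp90b1, the form of the endoplasmic reticulum (ER), read 5459 and 5301 in fluoxetine pools and 5005 and 5790 in control pools, with an interval of -0.25 to 0.24. Over the 5 tested HSP90 probesets log2 values reached at most 0.07, with 0 calls by limma. At an unadjusted p under 0.05 there were 0, against 22.5% over the array. Hsp90ab1 was not analysed here.

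**Figure D2:**
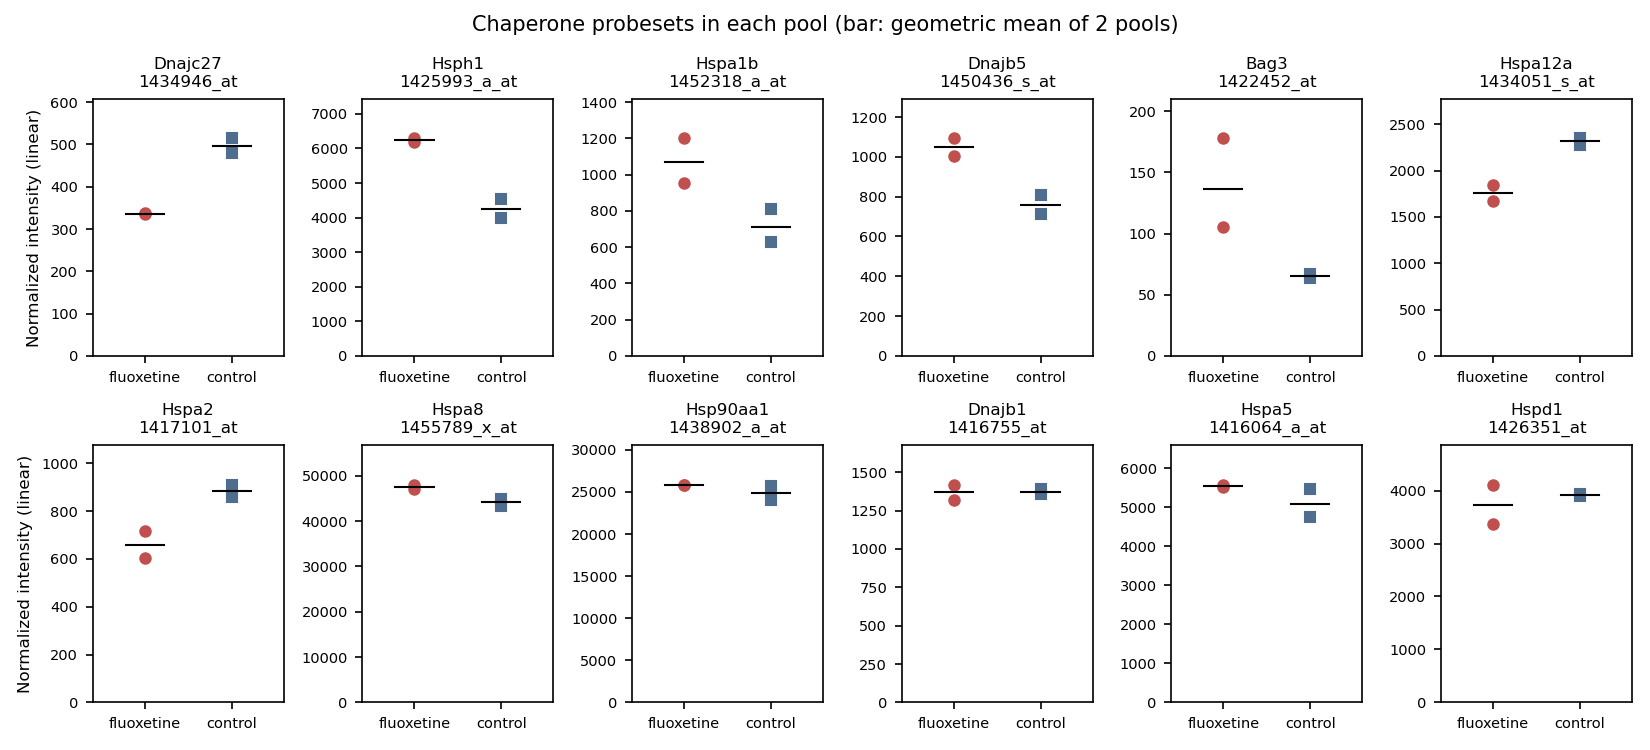
Normalized intensity (linear axis from 0) of 12 chaperone probesets in each pool, fluoxetine pools as circles and control pools as squares; the bar is the geometric mean of the 2 pools. The fluoxetine pools lie apart from the control pools for Dnajc27, Hsph1, Hspa1b, Dnajb5, Bag3, Hspa12a and Hspa2. They also lie above the control pools, by smaller margins, for Hspa8, Hsp90aa1 and Hspa5, while the pools overlap for Dnajb1 and Hspd1. Groups did not overlap for 56.0% of all tested probesets.

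Among J-domain proteins, Dnajc27 gave the single call. It encodes a Rab-like small GTPase with a J domain. The probeset that passed read 336 and 337 in fluoxetine pools and 480 and 515 in control pools. The log2 difference was -0.56 with an SE of 0.07 (95% interval -0.75 to -0.38, adjusted p = 0.0460 by limma). The second, brighter probeset read 894 and 853 in fluoxetine pools and 1200 and 1273 in control pools (log2 -0.50 ± 0.07, adjusted p = 0.0581 by limma), on the other side of the threshold with nearly the same fold. The call did not survive leaving out any 1 array (adjusted p 0.143 to 0.201 over these 4 fits), the pool number as a block (0.114), or testing without the intensity filter (0.163). The log2 value was -0.61 to -0.51 with 1 array left out, and -0.56 with the block and without the filter. Rescaled arrays (quantile normalization or median centring) or a pseudocount of 32 gave -0.54 to -0.52. With 1 array left out or without the filter, limma called 0 probesets on the whole array.

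Dnajb5, a J-domain protein related to the heat-inducible Dnajb1, was higher in fluoxetine pools at all 3 of its probesets. Its brightest read 1002 and 1094 in fluoxetine pools and 808 and 714 in control pools (log2 0.46 ± 0.10, adjusted p = 0.0917 by limma). The others gave 0.49 and 0.33, and groups did not overlap at any of the 3. Dnajb1 itself, a main partner of inducible HSP70, read 1321 and 1419 in fluoxetine pools and 1359 and 1388 in control pools at its brightest probeset. The interval there was -0.19 to 0.18 and the groups overlapped. The other Dnajb1 probeset read 466 and 455 in fluoxetine pools and 446 and 402 in control pools (log2 0.12), without overlap and without passing. Dnajb2, which has neuronal forms, was at log2 -0.26 and Dnajb12, an ER membrane protein, at 0.34, and neither passed. Dnajb12 was at 0.06 without fluoxetine pool 2 and 0.61 without fluoxetine pool 1, and Dnajb2 at -0.16 without control pool 2. Dnajb6, which keeps polyglutamine proteins from aggregating, was at -0.08 at its brightest probeset and at -0.16 and -0.43 at the others. Of 16 tested DNAJB probesets 0 passed limma and 4 had an unadjusted p under 0.05 (25%, against 22.5% over the array).

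The large DNAJC class had a median log2 of -0.056, against -0.036 over the array. Of its 45 tested probesets 14 lay above 0, against 7001 of 16938 over the array. The 21 DNAJC probesets without overlap were 6 higher and 15 lower, 46.7% against 56.0% over the array. By side, 13.3% of the class lay higher and 33.3% lower, against 21.9% and 34.2% over the array, so the lower share was close to that of the array. Synaptic members differed little at their brightest probesets. Dnajc5, the cysteine string protein of synaptic vesicles, read 3181 and 3124 in fluoxetine pools and 3088 and 3292 in control pools (interval -0.20 to 0.17). Dnajc6, the clathrin-uncoating factor auxilin, read 5485 and 5909 in fluoxetine pools and 5950 and 5638 in control pools. A dimmer Dnajc6 probeset read 154 and 158 in fluoxetine pools, against 189 and 225 in control pools (log2 -0.40 ± 0.10, adjusted p = 0.127 by limma). Another read 553 and 543 in fluoxetine pools, against 643 and 602 in control pools (log2 -0.18, adjusted p = 0.225 by limma). Groups overlapped at the brightest Dnajc6 probeset alone, so the size of the difference varied with the probeset. Dnajc24, which acts in diphthamide synthesis, was at log2 0.53, Dnajc21, a ribosome biogenesis factor, at -0.34, and Dnajc4 at -0.22, all without passing. Dnajc24 lay near the cut-off of 100, with 126 and 142 in fluoxetine pools and 103 and 82.6 in control pools. Its log2 was 0.39 with values floored at 100, and 0.37 without control pool 2. Leaving out fluoxetine pool 2 gave -0.14 for Dnajc21 and -0.05 for Dnajc4, and leaving out fluoxetine pool 1 gave -0.54 for Dnajc21 and -0.39 for Dnajc4. Without control pool 1, Dnajc21 was at -0.19. The DNAJA class spanned -0.23 to 0.23, with 0 of 12 probesets called by limma. At an unadjusted p under 0.05 this class had 0, against 22.5% over the array. Its cytosolic Dnaja1 read 7929 and 8581 in fluoxetine pools and 8482 and 9212 in control pools at the brightest probeset (log2 -0.10), with overlap. The other Dnaja1 probesets were at 0.14 and 0.10, both higher with fluoxetine without overlap. At their brightest probesets Dnaja2 was at 0.01, the mitochondrial Dnaja3 at 0.06, and Dnaja4 had 722 and 724 as group means with fluoxetine and without. The other Dnaja4 probesets were at 0.21, without overlap, and at 0.23, with overlap. A dimmer Dnaja2 probeset was at -0.23, with overlap.

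Bag3, an exchange factor that works with Hspb8 in selective autophagy, stood in 1 probeset. It read 105 and 178 in fluoxetine pools and 64.0 and 67.1 in control pools. Both control pools lay under 100, so Bag3 passed the filter only through the group where it was high. The fold is given as at least 1.37, and the fitted log2 was 1.06 ± 0.25 (adjusted p = 0.113 by limma). With values floored at 100 the log2 was 0.45 (adjusted p = 0.354), and with the deposited values it was 0.69 without fluoxetine pool 2 and 1.44 without fluoxetine pool 1. Among the 117 tested probesets it alone met the submitters' own rule of 2-fold between group means, a rule that 0.791% of tested probesets met, 0.667% of all tested with the higher value in fluoxetine. The rule counts its control values as measured, under 100, and not the bound. Because of the way Bag3 passed the filter, meeting this rule is no separate support. Untested probesets of Hspb1 and Hspb6 also differed by 2-fold or more. The other tested BAG genes lay close to 0, with Bag1 at 0.06, Bag4 at 0.07, Bag5 at -0.02 and Bag6, which guards tail-anchored membrane proteins, at -0.04. Of 6 tested BAG probesets 0 passed and 1 had an unadjusted p under 0.05 (16.7%, against 22.5% over the array).

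**Figure D3:**
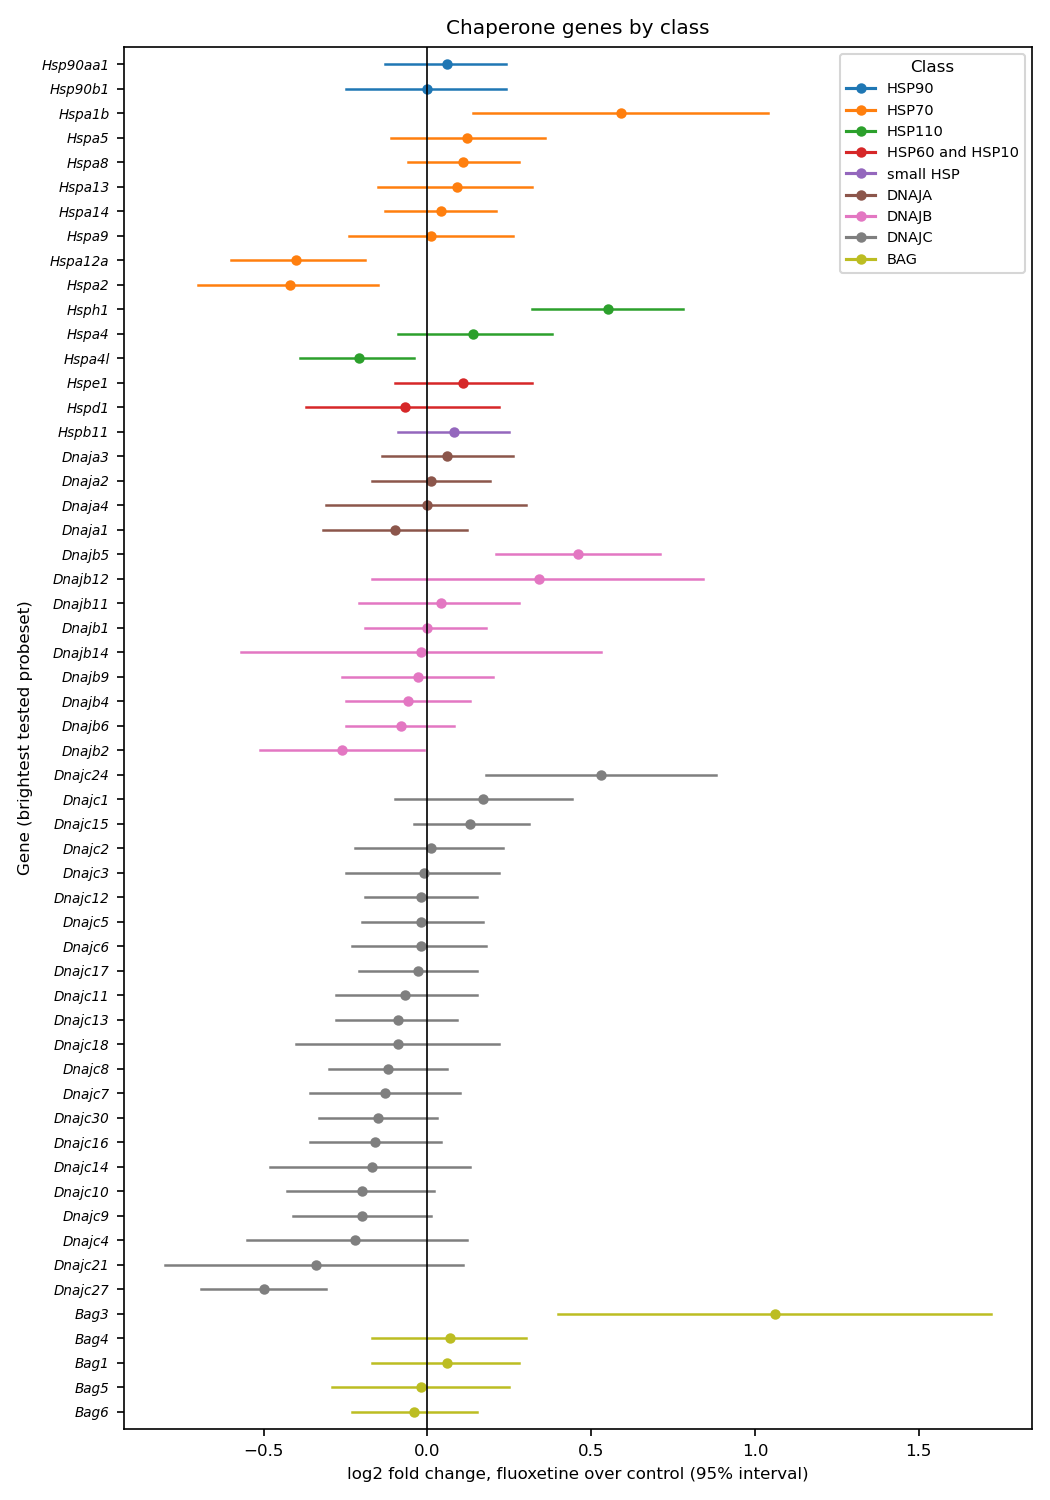
Log2 fold change, fluoxetine over control, with limma's 95% interval for the 56 chaperone genes at their brightest tested probeset, coloured by class. Intervals of Hspa1b, Hsph1, Dnajb5, Dnajc24 and Bag3 lie above 0 and those of Hspa12a, Hspa2, Hspa4l, Dnajb2 and Dnajc27 below 0, before adjustment for the number of probesets. Bag3 passed the intensity filter through its fluoxetine pools alone.

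Chaperones of the ER and mitochondria showed 0 calls by limma. In the ER, Hspa5 (BiP), the main HSP70 there, read 5581 and 5512 in fluoxetine pools and 5459 and 4748 in control pools (log2 0.12, 95% interval -0.11 to 0.36). The other Hspa5 probesets were at 0.10 and 0.44. Fluoxetine pools lay above control pools without overlap at all 3, and groups did not overlap for 56.0% of all tested probesets. Dnajb9, a BiP partner induced by unfolded proteins, read 1923 and 2133 in fluoxetine pools and 1984 and 2149 in control pools, and its groups overlapped. Over 30 tested ER probesets the median was 0.01. An unadjusted p under 0.05 was found for 1 of them (3.33%, against 22.5% over the array), the dim Hspa5 probeset (0.44). In mitochondria, Hspa9, the matrix HSP70, read 2930 and 2516 in fluoxetine pools and 2674 and 2732 in control pools. Hspd1 read 4112 and 3376 in fluoxetine pools and 3940 and 3899 in control pools, and its partner Hspe1 read 2848 and 2923 in fluoxetine pools and 2807 and 2533 in control pools. Hspd1 lay at -0.07 and Hspe1 at 0.11 on the log2 scale. Groups overlapped for Hspd1 but not for Hspe1, which was higher with fluoxetine at this probeset. Both genes share the stretch of 3-unit runs printed above, and a link between motif and value was not tested. The 12 mitochondrial probesets spanned -0.22 to 0.13, with 0 at an unadjusted p under 0.05, against 22.5% over the array.

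Apart from Hspb11, the small HSPs of the name rule were dim, and 1 of them set a single array apart. Of 14 small HSP probesets only 1 was tested, that of Hspb11, which encodes an intraflagellar transport protein (log2 0.08). Hspb1, the main inducible small HSP, read 406 in fluoxetine pool 1 and 78.8 in fluoxetine pool 2, against 51.8 and 55.6 in control pools. Its second probeset read 381 and 45.1 in fluoxetine pools and 43.2 and 38.4 in control pools. Hspb1 therefore reached 100 in 1 array alone and was not tested. Hspb8 at its brightest probeset read 85.9 and 45.2 in fluoxetine pools and 43.6 and 43.1 in control pools, not above 100 anywhere. Hspb6, also under 100, read 35.4 and 21.3 in fluoxetine pools and 5.66 and 5.68 in control pools. Group means of 3 untested probesets, both of Hspb1 and that of Hspb6, differed by 2-fold or more.

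**Figure D4:**
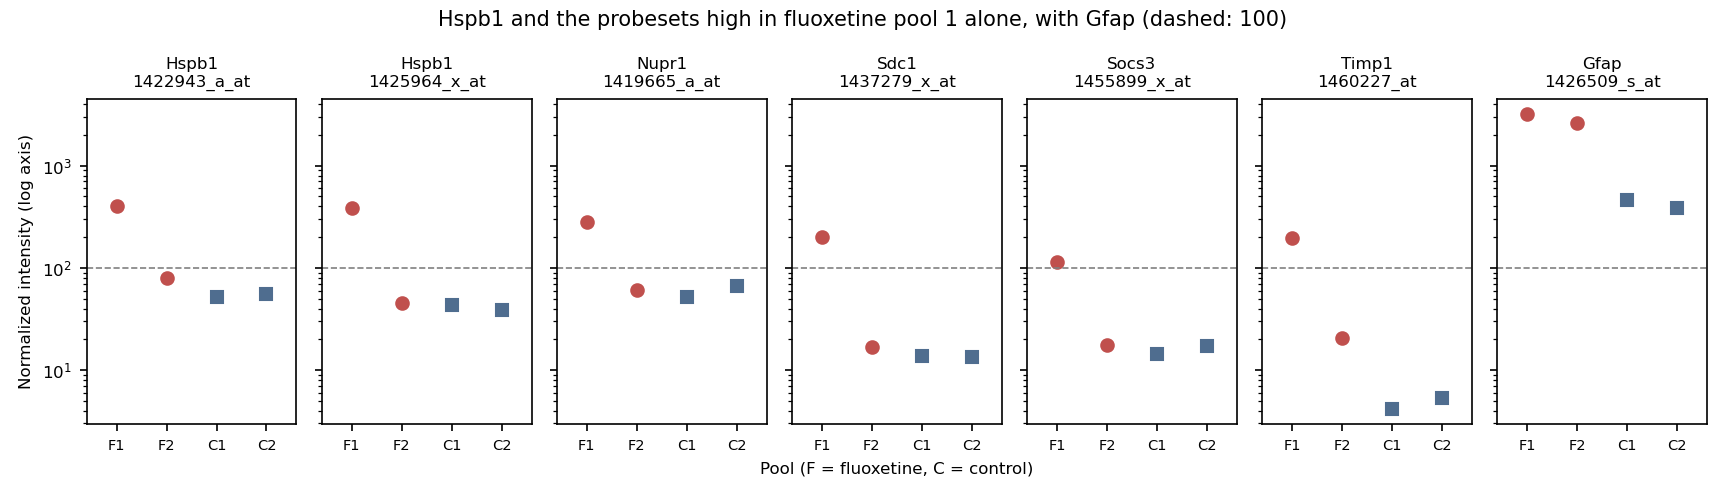
Normalized intensity (log axis) in each pool (F, fluoxetine; C, control) of the 2 Hspb1 probesets, of the 4 other probesets on the array that reached 100 in fluoxetine pool 1 at 4 times or more the highest of the remaining arrays, and of the astrocyte filament gene Gfap. Hspb1, Nupr1, Sdc1, Socs3 and Timp1 are high in fluoxetine pool 1, while Gfap is high in both fluoxetine pools (3222 and 2606, against 461 and 385 in control pools).

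The transcription factors of the class gave no test. All 6 probesets of Hsf2, Hsf4, Hsf5 and Hsf2bp (an HSF2-binding protein) stayed below 100 in every array, the highest at 13.7, and Hsf1 was not analysed here. In all, 67 member probesets lay under the filter, 41 of them below 10 in every array, and 24 genes had no tested probeset. These included Bag2, Dnajb3, Dnajb7, Dnajb8, Dnajb13, Dnajc5b, Dnajc5g, Dnajc22, Dnajc25, Dnajc28, Hspa1l and Hspa12b. Where a gene had more than 1 tested probeset (37 genes), they lay on both sides of 0 in 10: Dnaja1, Dnaja2, Dnajb4, Dnajc3, Dnajc5, Dnajc10, Dnajc11, Dnajc18, Hspa4 and Hspa9.

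Chaperone genes outside the name rule gave no call. Of 63 listed genes 52 were tested at their brightest probeset, with 0 called by limma, 2 at an unadjusted p under 0.05 and a median log2 of 0.02. Over all genes, 1.86% were called. The pair past the unadjusted threshold were Serpinh1, the ER chaperone of collagen, and Cryab, a small HSP of the crystallin type. Serpinh1 read 180 and 109 in fluoxetine pools and 76.5 and 61.3 in control pools, at least 1.4-fold (adjusted p = 0.126 by limma). It passed the intensity filter through its fluoxetine pools alone. Cryab read 2320 and 2552 in fluoxetine pools and 2007 and 1972 in control pools (log2 0.29 ± 0.08, adjusted p = 0.134 by limma). Hyou1, the HSP110 of the ER, was at log2 0.37 (adjusted p = 0.240), the 8 CCT chaperonin subunits spanned -0.13 to 0.14 and the 17 tested HSP90 and HSP70 co-chaperones -0.23 to 0.17. The 7 tested ER stress genes, Xbp1, Atf4 and Ddit3 among them, spanned -0.15 to 0.11.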

How the data were processed

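The deposited values are linear intensity values that the authors made by GCRMA normalization, per the labels, with ArrayAssist software. GCRMA estimates background from each probe's sequence, equalises the arrays' distributions and gives 1 value per probeset. No version is given in the sources used here. The deposited intensity was taken to log2 with no added constant. Probesets were named from the platform annotation (34958 with 1 symbol, 932 with several, 9211 with none). Another 3 probesets, of Dnajc19, carry 2 symbols and were not used.

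The test was limma's moderated one (limma 3.58.1 under R 4.3.3; lmFit and eBayes, two-sided, no covariate), adjusted by Benjamini-Hochberg over all 16938 tested probesets. The 64 Affymetrix controls were left out. Means are geometric and errors are limma standard errors. An exact permutation test of 2 against 2 pools cannot go below 0.333. Where both pools of a group were under 100, folds are bounds against 100. The procedure was tested on simulated data. Alternatives covered filters, scaling, floors, a pseudocount of 32, single arrays left out, the pool number as a block, moderation settings, probeset choice and the submitters' 2-fold rule. Genes are named where they passed, were among each class's brightest or largest 4 changes, or belong to a fixed list of core chaperones; Dnajc5 and the probesets of other small HSPs were added after their values were seen. The members, classes and lists were chosen with earlier results of these data known.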

Additional observations from a re-analysis of the deposited data

Results flagged for a closer look

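The hybridisation spike-ins, bacterial and phage RNA added in fixed amount and outside the comparisons above, were higher in fluoxetine arrays. All 18 spike-in probesets were above both control arrays in both fluoxetine arrays, by a median log2 of 0.36 (0.17 to 0.55). The chaperone members had a median of -0.001 and all tested probesets -0.036. The part of this shift in the chaperone values was not tested.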

How the results depend on the processing

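The number of chaperone probesets called was 1 in the fit reported. It was 0 without the intensity filter, 0 with the replicate block, 0 with 1 probeset per gene and 0 without any 1 of the 4 arrays. It was 2 with a pseudocount of 32 (both Dnajc27), 3 with median centring (Dnajc27 and both Hsph1 probesets) and 5 with trend and robust settings (both Dnajc27, both Hsph1 and Hspa12a). Members at an unadjusted p under 0.05 numbered 15 to 23 with 1 array left out and 30 without the filter, where all 184 were tested, against 20 in the fit reported. The submitters' 2-fold rule took 1 of the 117 tested, Bag3, with control values under 100, and not Dnajc27. The members' median log2 of -0.001 ran from -0.023 to 0.035 with 1 array left out. The count of further chaperone genes, 0 in each limma fit, was 1 under the 2-fold rule (Serpinh1). Some values near 0 changed sign when 1 array was left out. Over these 4 fits Bag1 ran from -0.03 to 0.15, Bag4 from -0.02 to 0.16, Dnaja2 from -0.02 to 0.05, Dnajb9 from -0.10 to 0.05, Dnajc6 from -0.08 to 0.03, Hspa9 from -0.10 to 0.12 and Hspd1 from -0.22 to 0.07. The cause was not tested. The labels do not say what pools of the same number share. The groups' differences of pool 1 minus pool 2 correlated at 0.139 over 16938 probesets, and choroid plexus markers were high in pool 1 of both groups. With 2 pairs this does not settle a pairing, and the replicate block left 9 calls on the whole array. The design of 2 pools a group limits the precision. Bag3, Dnajc24 and the small HSPs of the name rule other than Hspb11 lay near or under the intensity of 100, save Hspb1 in fluoxetine pool 1.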

Other observations

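A search made after the Hspb1 values were seen asked which probesets reached 100 in 1 array at 4 times or more the highest value of the other 3. Fluoxetine pool 1 gave 6, fluoxetine pool 2 gave 1 (the immediate early gene Egr2), and each control pool gave 0. Besides both Hspb1 probesets, those of fluoxetine pool 1 were Sdc1, a heparan sulfate proteoglycan (200 in that pool and 16.7 in fluoxetine pool 2, against 13.7 and 13.4 in control pools), and Timp1, a metalloprotease inhibitor (196 and 20.6, against 4.13 and 5.33 in control pools). The cytokine signalling inhibitor Socs3 read 115 and 17.5 in fluoxetine pools and 14.4 and 17.0 in control pools, and the stress-induced nuclear protein gene Nupr1 read 279 and 60.9 in fluoxetine pools and 51.7 and 65.8 in control pools. Each value is 1 pool of 6 mice, so it is not known how many mice contributed, and no test applies. Hsph1 did not share this split, with 6300 in fluoxetine pool 1 and 6182 in fluoxetine pool 2, and Bag3 was the higher in fluoxetine pool 2 (178, against 105 in fluoxetine pool 1).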
